A study of Mus musculus with 6 samples.

Results

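The DNA replication machinery was examined as 50 genes, selected by symbol for their known function, by a rule that uses no measured value. They are 50 of the 27506 genes in the deposited count table. By role they comprise 9 genes of origin licensing, 13 of the replicative helicase and its activation, 9 of the polymerases and primase, 6 of the sliding clamp and its loader, 5 of single-strand binding and lagging strand processing, 4 of nucleotide supply and 4 that copy chromatin and DNA methylation. Total RNA of dental pulp, taken from mandibular first molars of C57BL/6 mice, had been sequenced at P3.5 (3.5 days after birth). There were 3 libraries labelled *Ror2fl/fl*, a genotype with floxed alleles and no Cre named, which are called control. Another 3 were labelled *Osr2-Cre;Ror2fl/fl*, with the same floxed alleles together with Cre, and are called mutant. Recombination by *Osr2-Cre* reaches mesenchymal cells of the tooth and the bone around it, and epithelial cells of the tooth keep *Ror2*. *Ror2* encodes a receptor for Wnt5a in non-canonical Wnt signaling.

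Before S phase, the origin recognition complex and its partners load the MCM helicase, a ring of Mcm2 to Mcm7, onto DNA as an inactive pair. Kinases, Cdc45 and the GINS complex then activate the helicase, DNA polymerase alpha with primase lays down primers, and polymerases delta and epsilon extend them while held on the template by the clamp Pcna. Many of these genes are transcribed under the control of E2F factors as cells commit to division. In the young molar, dividing cells lie mainly in the apical dental mesenchyme and in the epithelium around it, where the root will form.

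Each library held between 56134770 and 62628940 estimated counts, of which the replication genes took between 0.0582% and 0.0751%. *Ror2* itself was read at 38.2, 36.2 and 36.7 CPM (counts per 1000000, TMM-scaled) in the control libraries and at 27.9, 28.1 and 26.3 CPM in the mutant libraries. It fell by 0.43 on the log2 scale (SE, the standard error, 0.08, adjusted p = 0.013). This and every later adjusted p comes from the quasi-likelihood test of edgeR, adjusted by the Benjamini-Hochberg method over all genes tested. The deposited value is 1 sum per gene, so any transcripts of the recombined allele were not separated from those of the intact allele. Dental mesenchyme and odontoblast markers were present in every library, but so were enamel transcripts of the dental epithelium, and *Amelx*, *Ambn* and *Enam* took between 17.3% and 23.7% of all counts. The 12 epithelial markers summed to between 172332 and 192980 CPM in control and between 185540 and 255979 CPM in mutant libraries, and none of them passed the test. All 8 skeletal muscle markers had mutant libraries below control libraries and 7 passed the test (8 in DESeq2 and 4 in limma voom). In mutant libraries they summed to between 4.14 and 4.68 CPM against between 12.2 and 39.2 CPM in control libraries. In the other 6 marker lists, 3 of 12 genes of dental mesenchyme (1 lower, 2 higher) and 3 of 8 tested genes of leukocytes (1 lower, 2 higher) passed the test. So did 2 of 8 of red blood cells (2 lower) and 2 of 6 of Schwann cells (2 higher). None of 6 of endothelium and none of 8 of odontoblasts passed. Of all genes tested, 9.84% were lower and 10.4% higher. Odontoblast markers summed to between 20192.6 and 60169.5 CPM in control and between 17321.5 and 46892.7 CPM in mutant libraries. Among them *Col1a1* was at 11079, 37115 and 26552 CPM in control libraries 1, 2 and 3. Endothelium markers summed to between 184 and 245 CPM in control and between 172 and 230 CPM in mutant libraries. Red blood cell markers summed to between 784 and 1330 CPM in control and between 245 and 942 CPM in mutant libraries, and leukocyte markers to between 89.5 and 96.8 CPM and between 97.8 and 229 CPM. Schwann cell markers came to between 27.7 and 37.6 CPM and between 36.0 and 42.9 CPM, and mesenchyme markers to between 558.4 and 665 CPM and between 639 and 711 CPM. The called leukocyte genes were *S100a8* and *S100a9*, which were higher (log2 fold change 4.42 and 3.47), and *Adgre1*, which was lower (-0.61). Of the 8 leukocyte genes tested, 3 had a negative and 5 a positive log2 fold change. Of the 12 mesenchyme genes, 7 were negative and 5 positive. No listed marker was at 0 in all libraries. The part of these cells in the results below was not tested. In tissue RNA of this kind, fewer dividing cells and less RNA per cell cannot be told apart.

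All 50 replication genes passed the filter on low counts and were tested among 19330 genes. *Orc4*, *Mcm3*, *Mcm6* and *Pola1* were lower in mutant libraries and *Rfc3* and *Rpa3* were higher. These 6 genes are 12% of the 50, whereas 20.2% of all genes tested passed the same threshold (adjusted p under 0.05). By direction, 8% of the replication genes were lower and 4% higher, against 9.84% and 10.4% of all genes. Their median log2 fold change was -0.13, and that of all genes tested was 0.0074. With an offset for GC content in the fit these medians were -0.029 and 0.027. Counting unadjusted p-values under 0.05, 11 of them were lower (22%, against 18.7% of all genes) and 4 higher (8%, against 19.6%). DESeq2's Wald test put 10 of the 50 past the threshold, when it called 28% of all genes, and limma voom put 6, when it called 19.3%. The share called was thus below that of the whole table, a difference that was not tested.

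**Figure D1:**
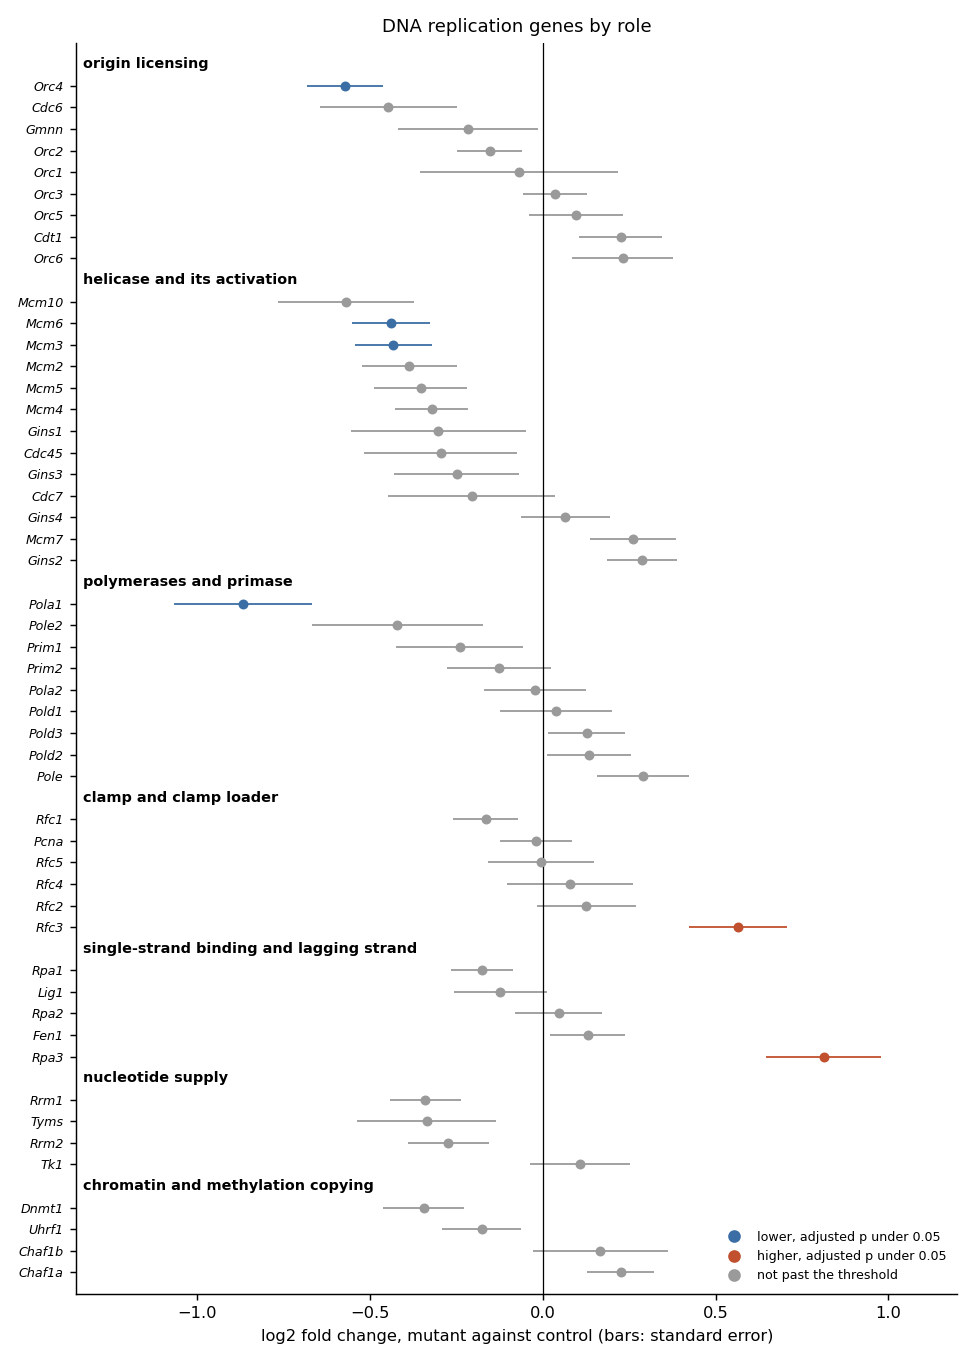
Log2 fold change of each of the 50 replication genes (horizontal axis, mutant against control, with its standard error from edgeR), grouped by role; blue and red points passed the test and grey points did not. The genes of the helicase lie mostly left of 0, with *Mcm7*, *Gins2* and *Gins4* to the right, and *Pola1* at -0.87 and *Rpa3* at 0.81 are the outermost points.

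A gene whose 3 mutant libraries all lie below, or all above, its 3 control libraries has groups that do not overlap. This held for 17 replication genes with the mutant libraries below (34.0%, against 22.1% of all genes tested) and for 8 with the mutant libraries above (16.0%, against 22.6%). With 3 libraries against 3, an exact two-sided permutation test cannot give less than p = 0.1, which every gene without overlap reached. The median deviation of the 50 genes from their mean over the 6 libraries was 0.12, -0.02 and 0.03 on the log2 scale in control libraries 1, 2 and 3, and -0.21, -0.0095 and 0.02 in mutant libraries 1, 2 and 3. Mutant library 1 was thus the lowest and control library 1 the highest, and mutant libraries 2 and 3 lay between control libraries 2 and 3 by this measure. Among the 30 genes with a negative fold change, mutant library 3 held the highest of the mutant values in 20 and mutant library 2 in 10. Without mutant library 1 the median log2 fold change of the 50 genes was 0.00055.

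The number of called genes depended on which libraries were used. Without control library 2, and likewise without control library 3, edgeR called none of the 50, while the share of all genes called also dropped, to 4.57% and 4.39%. Without control library 1 it called *Orc4*, *Rfc3* and *Rpa3* (13.5% of all genes), and without mutant library 1 it called *Orc4* and *Rpa3* (12.2% of all genes). Without mutant library 3 it called 10 lower genes (*Orc4*, *Mcm2*, *Mcm3*, *Mcm4*, *Mcm5*, *Mcm6*, *Pola1*, *Rrm1*, *Tyms* and *Dnmt1*) and 2 higher genes, when 25.2% of all genes were called. Without mutant library 2 it called 6 lower genes and *Rpa3*, when 19% of all genes were called.

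**Figure D2:**
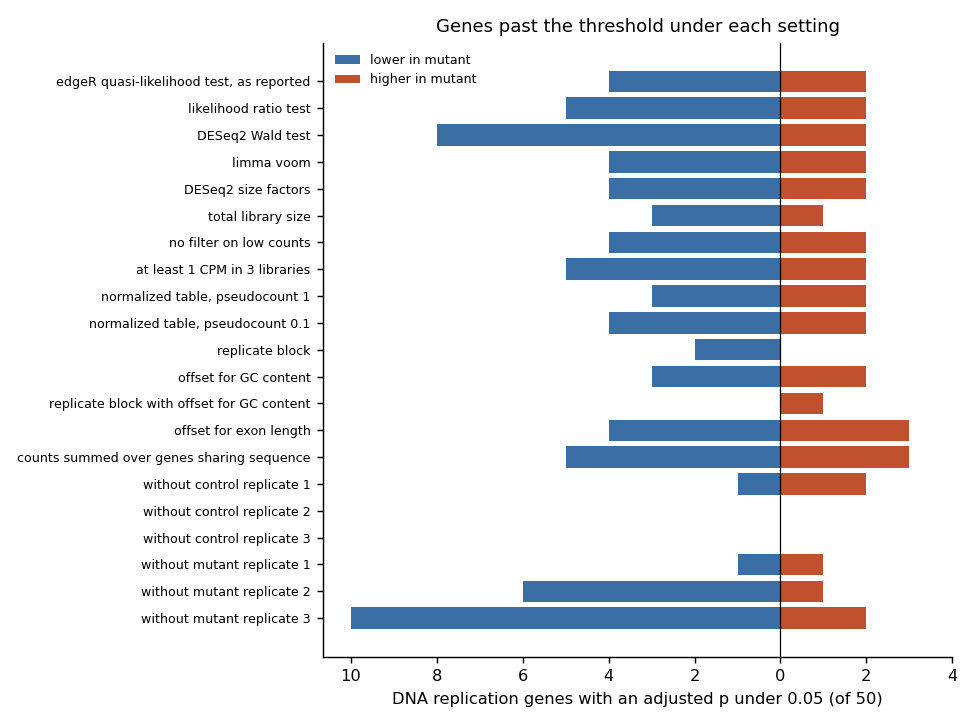
Number of the 50 replication genes with an adjusted p under 0.05 (horizontal axis, lower in mutant to the left in blue, higher to the right in red) in the reported test and under each alternative. The reported 4 lower and 2 higher genes become 10 and 2 without mutant library 3 and none without control library 2 or 3.

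Origin licensing was the role of 9 genes, and *Orc4* alone of these passed the test (11.1%, against 20.2% of all genes tested). *Orc4* encodes a subunit of the origin recognition complex, the ATPase that marks where replication can begin (ENSMUSG00000026761.12, chromosome 2 of mm10, 48902824 to 48950277, minus strand). It was read at 23.7, 22.5 and 23.3 CPM in the control libraries and at 13.8, 17.1 and 15.8 CPM in the mutant libraries. All mutant values lay below all control values, and *Orc4* fell by 0.57 on the log2 scale (SE 0.11, edgeR adjusted p = 0.013). *Orc4* overlaps *Acvr2a* on the opposite strand. The sum of *Orc4* and *Acvr2a* averaged 53.2 CPM in control and 38.3 CPM in mutant libraries (-0.47, edgeR adjusted p = 0.012). This sum contains *Orc4* itself, so it cannot separate *Orc4* from *Acvr2a*. With an offset for GC content in the fit, its log2 fold change was -0.08 (edgeR adjusted p = 0.68, against 1.1e-04 to 0.74 over the 20 alternatives).

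Per kilobase of exon, *Orc2* had the highest level of this role, 5.57 ± 0.241 CPM per kilobase in control libraries (SD, n = 3). It overlaps *Nif3l1* on the opposite strand, and 25.1% of its stretches are shared. *Orc2* encodes another subunit of the origin recognition complex, and was read at 22.5, 20.6 and 21.4 CPM in control against 18.4, 20.04 and 19.5 CPM in mutant libraries. The groups did not overlap, yet the difference did not pass the test (log2 fold change -0.15, edgeR adjusted p = 0.26). *Orc3* followed at 4.95 CPM per kilobase, and the order ended with *Cdc6*, which helps to load the helicase, at 0.358 and *Orc1*, the largest subunit of the complex, at 0.178. *Cdc6* had mutant libraries below the control libraries and the loading factor *Cdt1* had them above, with adjusted p-values of 0.14 and 0.20 from edgeR. *Orc1*, *Orc3*, *Orc5*, *Orc6* and *Gmnn*, which encodes the Cdt1 inhibitor geminin, had overlapping groups.

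The helicase and its activation held 13 genes, of which 10 had a negative log2 fold change and *Mcm3* and *Mcm6* passed the test. The median of the 13 was -0.30. Called genes were 15.4% of the 13, against 20.2% of all genes tested. DESeq2 called 4 of the 13, when it called 28% of all genes, and limma voom 2, when it called 19.3%. In 7 of the 13 (53.8%, against 22.1% of all genes tested) the mutant libraries lay below the control libraries without overlap. In 2, *Mcm7* and *Gins2*, they lay above (15.4%, against 22.6%). The ring subunits Mcm2 to Mcm7 are related ATPases that occur once each in the helicase, so their genes were set beside one another.

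*Mcm6* (ENSMUSG00000026355.11, chromosome 1, 128331590 to 128359664, minus strand) was read at 27.8, 26.5 and 26.8 CPM in control and at 17.6, 19.6 and 22.5 CPM in mutant libraries. It fell by 0.44 on the log2 scale (SE 0.11, edgeR adjusted p = 0.031). All mutant libraries were below all control libraries, and mutant library 3 was nearest to them. *Mcm3* (ENSMUSG00000041859.10, chromosome 1, 20802968 to 20820312, minus strand) had values of 13.0, 11.5 and 12.5 CPM in the control group against 9.01, 8.75 and 9.72 CPM in the mutant group. Its groups were also apart, and it fell by 0.43 (SE 0.11, edgeR adjusted p = 0.032). With the offset for GC content *Mcm3* stayed past the threshold, and *Mcm6* did not (-0.34, edgeR adjusted p = 0.071, against 0.0058 to 0.16 over the 20 alternatives).

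*Mcm2*, *Mcm4* and *Mcm5* had similar fold changes that did not pass the test. *Mcm2* was read at 15.1, 14.4 and 14.8 CPM in control and at 10.1, 10.2 and 13.5 CPM in mutant libraries (log2 fold change -0.39, edgeR adjusted p = 0.077). *Mcm4* was at 17.4, 17.95 and 18.4 CPM in control and at 14.5, 13.0 and 15.5 CPM in mutant libraries (-0.32, edgeR adjusted p = 0.065). *Mcm5* was at 11.8, 11.6 and 11.1 CPM in control and at 7.54, 9.37 and 10.1 CPM in mutant libraries (-0.35, edgeR adjusted p = 0.093). In all of these the groups did not overlap, and mutant library 3 was the highest of the mutant libraries. With the offset for GC content their values parted, as *Mcm2* passed the threshold (-0.53, edgeR adjusted p = 0.045), *Mcm5* was at -0.45 (edgeR adjusted p = 0.056) and *Mcm4* at -0.12 (edgeR adjusted p = 0.41).

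*Mcm7* stood on the other side of 0. The libraries gave 20.5, 19.3 and 20.6 CPM in control against 21.8, 28.4 and 22.3 CPM in mutant libraries, a log2 fold change of 0.26 (SE 0.12, edgeR adjusted p = 0.16). The mutant libraries were above the control libraries, mutant library 2 by the widest margin. *Mcm7* was not past the threshold in any of 20 alternatives, in which its log2 fold change ran from 0.14 to 0.44. As the share of the summed level per kilobase of Mcm2 to Mcm7, *Mcm7* made up 19.3%, 18.9% and 19.6% in control and 26.6%, 31.4% and 23.7% in mutant libraries, a comparison chosen after the values were seen. *Mcm7* shares 12.7% of its stretches of 75 bases with the overlapping gene *Ap4m1* and the pseudogene *Gm5487*, so its counts are less certain than those of *Mcm2* to *Mcm6*, which share none above the limit used.

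**Figure D3:**
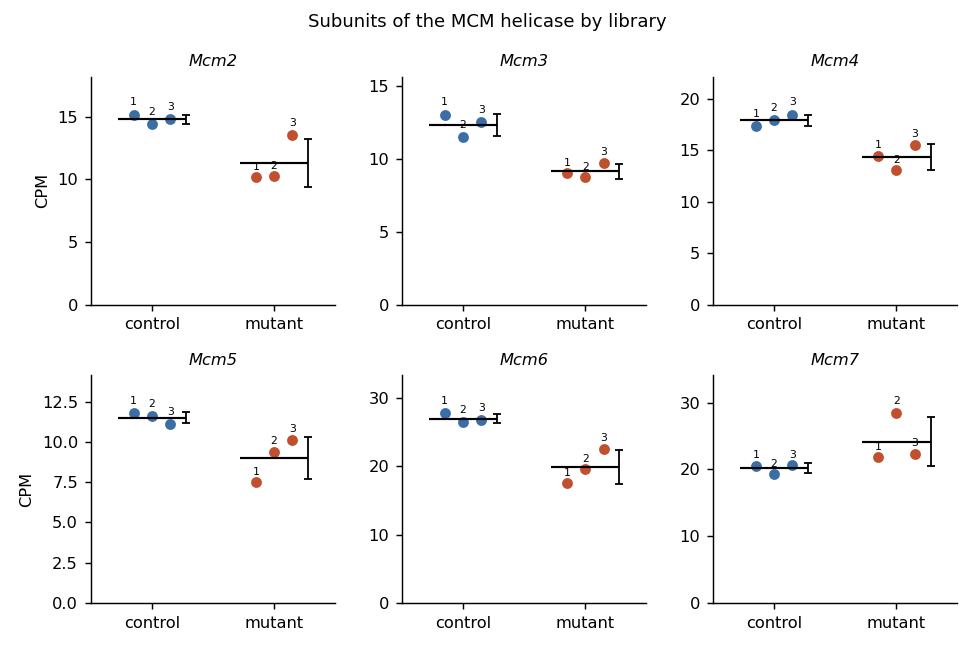
Level of the genes for the ring subunits of the MCM helicase in CPM (vertical axes, from 0) in control (blue) and mutant (red) libraries, numbered by library; lines mark means and bars the SD of 3 libraries. For *Mcm2* to *Mcm6* every mutant point lies below every control point, and for *Mcm7* every mutant point lies above.

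The remaining genes of this role act before or with the ring. *Mcm10*, which helps to start the loaded helicase, was read at 2.37, 2.42 and 2.15 CPM in control and at 1.34, 1.80 and 1.54 CPM in mutant libraries (log2 fold change -0.57, edgeR adjusted p = 0.073). Its groups did not overlap, but it was counted only 79 to 153 times per library. *Gins4*, a subunit of the GINS complex, had the highest level per length of the role in control libraries, 8.39 ± 0.170 CPM per kilobase. It was read at 11.5, 11.3 and 11.1 CPM in control and at 10.4, 11.5 and 13.7 CPM in mutant libraries, which overlapped (edgeR adjusted p = 0.74). *Gins2* was next at 6.39 ± 0.480 CPM per kilobase in control libraries, with 64.7% of its stretches shared with *Gse1* on the opposite strand, followed by *Mcm6* at 5.79 ± 0.146. *Gins1*, *Gins3*, *Cdc45* and the kinase gene *Cdc7* had log2 fold changes between -0.30 and -0.20, and none passed the test.

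Promoters were searched for the sequence that E2F factors bind. RefSeq start sites on GRCm38.p6 gave windows of 250 bases before to 50 bases after the start for 42 of the 50 genes. The letters TTTGGCGC, TTTCGCGC, TTTCCCGC or TTTGCCGC, on either strand, were present in a window of 17 of these 42 genes (40.5%) and of 704 of all 27025 genes with a window (2.6%). By role, a match was found in 4 of 8 genes of origin licensing, 5 of 9 of the helicase and its activation, 4 of 7 of the polymerases and primase, 1 of 5 of the clamp and its loader, 1 of 5 of single-strand binding and lagging strand processing, 0 of 4 of nucleotide supply and 2 of 4 that copy chromatin and methylation. The CHR element (TTTGAA or TTCGAA, either strand), known from promoters of mitotic genes, was in a window of 9 of the 42 genes (21.4%) and of 21.7% of all genes. The windows of all genes were not matched to those of the 42 genes in GC content. A match describes letters in a window and is not evidence of binding. The stretches below are shown because they belong to ring subunits on both sides of 0 and to called genes of other roles, with matches on either strand in capitals and adjoining bases in lower case, each 5′ to 3′ on the strand of the gene.
*Mcm3*, chr1:20820266-20820294, minus strand: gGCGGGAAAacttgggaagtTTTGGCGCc
*Mcm6*, chr1:128359784-128359835, minus strand: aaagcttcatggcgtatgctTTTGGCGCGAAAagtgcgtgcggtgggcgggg
*Mcm6*, chr1:128359725-128359772, minus strand: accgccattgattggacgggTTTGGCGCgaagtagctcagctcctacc
*Mcm5*, chr8:75109336-75109387, plus strand: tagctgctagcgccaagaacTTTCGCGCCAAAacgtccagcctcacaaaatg
*Mcm7*, chr5:138171849-138171878, minus strand: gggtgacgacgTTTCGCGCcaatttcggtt
*Pola1*, chrX:93632266-93632313, minus strand: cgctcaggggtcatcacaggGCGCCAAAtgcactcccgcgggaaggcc
*Rfc3*, chr5:151651195-151651224, minus strand: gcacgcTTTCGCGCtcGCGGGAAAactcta

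These stretches come from 6 genes whose fold changes differ in sign. Another stretch of *Mcm7* with 1 match, chr5:138172021-138172068, is not shown. The longer capital runs of *Mcm5* and *Mcm6* are matches on both strands that overlap. *Orc4* and *Rpa3*, which also passed the test, each had a window without these letters, and *Mcm4* had no window.

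Of the 9 genes of the polymerases and primase, *Pola1* alone passed the test (11.1%, against 20.2% of all genes tested). *Pola1* encodes the catalytic subunit of DNA polymerase alpha, which extends the RNA primers made by primase (ENSMUSG00000006678.6, chromosome X, 93304767 to 93632155, minus strand). Its level was 9.08, 9.88 and 8.79 CPM in control against 5.36, 3.59 and 6.25 CPM in mutant libraries. The groups did not overlap, and *Pola1* fell by 0.87 on the log2 scale (SE 0.20, edgeR adjusted p = 0.022), the most negative value among the 50 genes. With the offset for GC content its log2 fold change was -0.57 (edgeR adjusted p = 0.056, against 8.0e-04 to 0.11 over the 20 alternatives).

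The partners of *Pola1* in the same complex did not pass the test. *Pola2*, its accessory subunit, and the primase genes *Prim1* and *Prim2* had log2 fold changes between -0.24 and -0.02, with overlapping groups. *Pold2*, an accessory subunit of polymerase delta, had the highest level per length of the role, 7.60 ± 0.412 CPM per kilobase in control libraries. Its values of 15.2, 13.7 and 14.4 CPM in control against 17.2, 13.7 and 16.5 CPM in mutant libraries overlapped (edgeR adjusted p = 0.44). *Pold1* and *Pold3* had overlapping groups, as had *Pole2*. *Pole*, the catalytic subunit of polymerase epsilon, had mutant libraries above control libraries (edgeR adjusted p = 0.15).

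Of the clamp and its loader, *Rfc3* was the only called gene of 6 (16.7%, against 20.2% of all genes tested). *Rfc3* encodes a subunit of replication factor C, which opens the Pcna ring and places it on DNA (ENSMUSG00000033970.15, chromosome 5, 151642756 to 151651242, minus strand). The libraries gave 7.06, 5.66 and 6.43 CPM in control against 9.21, 10.6 and 8.55 CPM in mutant libraries. All mutant libraries were above all control libraries, and the gene rose by 0.56 on the log2 scale (SE 0.14, edgeR adjusted p = 0.029). *Rfc3* overlaps no other gene of the table and shares none of its stretches above the limit used.

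*Pcna* had the highest level per length of all 50 genes, 10.2 ± 0.419 CPM per kilobase in control and 10.1 ± 1.01 in mutant libraries. It was read at 24.96, 25.2 and 23.4 CPM in control and at 23.5, 22.2 and 26.9 CPM in mutant libraries. The highest and the lowest of these were both mutant libraries, and the adjusted p-value was 0.91 (edgeR). A pseudogene, *Pcna-ps2*, shares 13.8% of its stretches. *Rfc1*, the large subunit of the loader, had mutant libraries below control libraries (edgeR adjusted p = 0.23), and *Rfc2*, *Rfc4* and *Rfc5* had overlapping groups. *Rfc3* was therefore the only loader gene with mutant libraries above control libraries throughout.

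*Rpa3* was the called gene among 5 of single-strand binding and lagging strand processing (20%, against 20.2% of all genes tested). *Rpa3* encodes the smallest subunit of replication protein A, which coats unwound DNA (ENSMUSG00000012483.4, chromosome 6, 8255936 to 8259173, minus strand). Its level was 3.74, 3.17 and 3.30 CPM in control against 4.95, 6.41 and 6.59 CPM in mutant libraries. The groups did not overlap, and *Rpa3* rose by 0.81 on the log2 scale (SE 0.17, edgeR adjusted p = 0.016). Its processed pseudogene *Gm6195* shares 7.34% of its stretches and went the other way, with 2.499, 2.52 and 2.62 CPM in control against 1.28, 1.005 and 1.47 CPM in mutant libraries. The sum of both did not pass the test (0.28, edgeR adjusted p = 0.17).

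The other subunits of replication protein A did not follow *Rpa3*. *Rpa1*, the subunit with the highest level per length of the role, had values of 46.7, 44.3 and 43.6 CPM in the control group against 38.0, 38.4 and 42.7 CPM in the mutant group. All mutant values were lower, but the difference of -0.18 on the log2 scale did not pass the test (edgeR adjusted p = 0.18). *Rpa2* and the DNA ligase gene *Lig1* had overlapping groups. *Fen1*, the nuclease that trims Okazaki fragments, had mutant libraries above control libraries (edgeR adjusted p = 0.41) and shares 73.7% of its stretches with *Gm10143*.

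**Figure D4:**
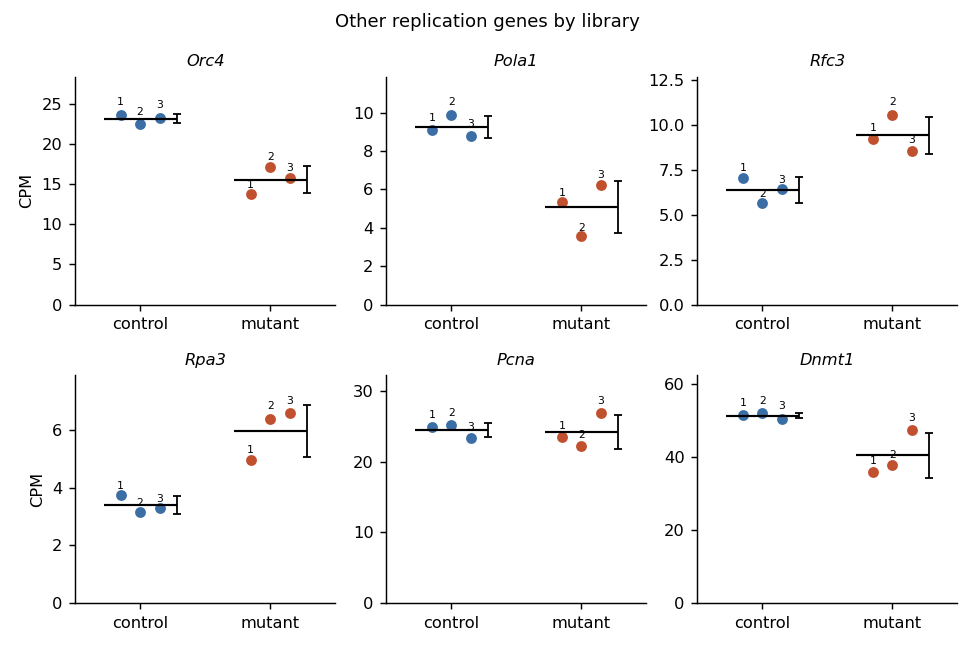
Level of *Orc4*, *Pola1*, *Rfc3*, *Rpa3*, *Pcna* and *Dnmt1* in CPM (vertical axes, from 0) in control (blue) and mutant (red) libraries, numbered by library; lines mark means and bars the SD of 3 libraries. *Orc4* and *Pola1* are lower and *Rfc3* and *Rpa3* higher in every mutant library, *Pcna* overlaps, and *Dnmt1* in mutant library 3 lies just under the control libraries.

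None of the 4 genes of nucleotide supply passed the adjusted threshold in edgeR (2 had an unadjusted p under 0.05, 1 passed in DESeq2 and 0 in limma voom). Of all genes tested, 18.7% were lower and 19.6% higher at an unadjusted p under 0.05. DESeq2 called 28% of all genes and limma voom 19.3%. *Rrm1*, the large subunit of ribonucleotide reductase, had the highest level per length of them, 3.87 ± 0.167 CPM per kilobase in control libraries. It was read at 44.7, 41.7 and 41.3 CPM in control and at 32.5, 30.7 and 37.7 CPM in mutant libraries. The groups did not overlap (log2 fold change -0.34, SE 0.10, edgeR adjusted p = 0.051), and with the offset for GC content the value was -0.12 (edgeR adjusted p = 0.40). *Rrm2*, the small subunit, also had mutant libraries below control libraries (edgeR adjusted p = 0.12), while thymidylate synthase (*Tyms*) and thymidine kinase (*Tk1*) had overlapping groups.

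None of the 4 genes that copy chromatin and methylation passed the reported edgeR test (2 had an unadjusted p under 0.05, 1 passed in DESeq2 and 0 in limma voom). The shares of all genes were 18.7% lower and 19.6% higher at an unadjusted p under 0.05, 28% in DESeq2 and 19.3% in limma voom. *Dnmt1*, the methyltransferase that restores methylation on new strands, had the highest level per length, 6.96 ± 0.0983 CPM per kilobase in control libraries. The libraries gave 51.5, 52.0 and 50.6 CPM in control against 36.1, 37.8 and 47.5 CPM in mutant libraries. The control libraries were close together and mutant library 3 lay nearer to them than to mutant libraries 1 and 2 (log2 fold change -0.34, edgeR adjusted p = 0.069). With the offset for GC content *Dnmt1* passed the threshold (-0.45, edgeR adjusted p = 0.039). *Uhrf1*, which guides Dnmt1 to new DNA, had mutant libraries below and *Chaf1a*, the large subunit of chromatin assembly factor 1, had them above control libraries, with adjusted p-values of 0.28 and 0.12 from edgeR. The sum of *Chaf1a* with genes that share 48.2% of its stretches passed (0.34, edgeR adjusted p = 0.039). That sum averaged 67.6 CPM in control libraries, of which *Chaf1a* itself was 18.8 CPM, so most of it came from the other genes. *Chaf1b* had overlapping groups.

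Other genes that act in replication, its checkpoint and its regulation were set beside them as a list of 50. Of these, 8 were lower and 1 higher in mutant libraries (18% called, against 20.2% of all genes), with a median log2 fold change of -0.18. By direction, 16% were lower and 2% higher, against 9.84% and 10.4% of all genes. Mutant libraries lay below without overlap in 38% (against 22.1% of all genes) and above in 12% (against 22.6%). With the offset for GC content 2 were lower and 2 higher, when 14.3% of all genes were called, and the median was -0.085. The lowest p-value belonged to the gene that was higher, *Pold4*, the smallest subunit of polymerase delta (7.90, 8.49 and 8.04 CPM in control, 12.2, 14.2 and 13.4 CPM in mutant libraries, log2 fold change 0.71, edgeR adjusted p = 0.0064). *Chtf8*, part of an alternative clamp loader, fell by 0.70 (edgeR adjusted p = 0.0098), and *Top2a*, a topoisomerase, fell by 0.68 (edgeR adjusted p = 0.012).

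Genes of mitosis had a more negative median than those of replication. Of 25 mitosis genes, 13 were lower and none higher (52.0% called, against 20.2% of all genes), with a median log2 fold change of -0.51. By direction, 9.84% of all genes tested were lower and 10.4% higher. *Bub1*, a spindle checkpoint kinase, fell by 1.03 on the log2 scale, *Mki67*, which encodes the proliferation marker Ki67, fell by 0.57, and the spindle motor gene *Kif11* fell by 0.66, with adjusted p-values of 0.0054, 0.011 and 0.011 from edgeR. With the offset for GC content 2 of the 25 were lower, when 1192 of all 19330 genes were lower, and the median of the 25 was -0.32. In every mutant library the median deviation of the mitosis genes was negative (-0.21, -0.25 and -0.13 on the log2 scale) and in every control library it was positive (0.32, 0.20 and 0.25). Whether the list of 50 replication genes differs from that of mitosis was not tested.

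**Figure D5:**
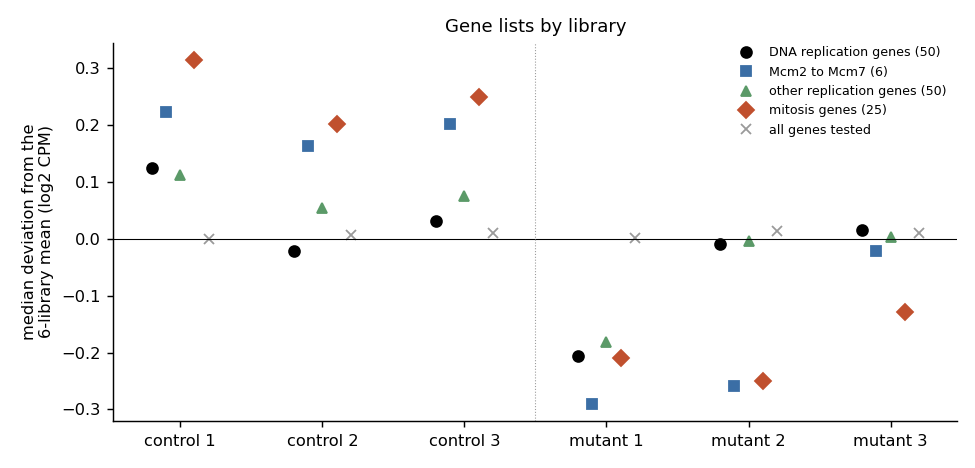
Median deviation of each gene list from its 6-library mean (vertical axis, log2 CPM) in each library (horizontal axis). Mitosis genes and *Mcm2* to *Mcm7* are above 0 in the control libraries and below 0 in the mutant libraries, whereas the 50 replication genes are below 0 in control library 2 and just above 0 in mutant library 3.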

How the data were processed

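Dental pulp libraries were grouped by the genotype in their labels, 3 control and 3 mutant. The study counts n in mice or in independent experiments and does not say which holds for these libraries, so p-values measure the spread between them, which may be technical. The authors deposited estimated counts per gene, in which 47.8% of values are whole, made from single-end reads of 75 cycles on mm10; the methods name TopHat 2, whereas the submitters' processing notes name STAR 2.6.1d and Partek. The annotation and use of strand are not given in the sources used here. The authors also deposited a normalized signal per gene (the count plus 1 times a factor per library), used only in an alternative. No sequencing batch is named, so one that coincided with genotype could not be told apart from it. The sample titles carry letter codes that are not explained, WW in control library 1, OW in control libraries 2 and 3 and OR in the mutant libraries. Whether the control libraries differ by this code was not tested. The table's 6 columns of other samples were not used.

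Counts were rounded, filtered (filterByExpr), TMM-scaled and tested in R 4.3.3 with edgeR 4.0.16 (quasi-likelihood test, Benjamini-Hochberg adjustment over all genes), after tests on simulated data. limma 3.58.1 and DESeq2 1.42.0 served as alternatives. The design assumed whole counts. Levels per length divide CPM by GENCODE M21 exon length. Genes sharing at least 20 stretches of 75 bases were treated as sharing sequence. The GC offset was a lowess curve (span 0.3) per library. Standard errors are the log2 fold change over the root of the F statistic.

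The replication genes and all gene lists were chosen with earlier results of these data known. Every replication gene is named. Values by library are given for those with an adjusted p under 0.05 and for the one of each role with the highest level per length. *Mcm2*, *Mcm4*, *Mcm5*, *Mcm7* and *Mcm10* were added. Of the other lists the 3 smallest p-values among called genes are named. Counting error adds to the spread between libraries most for genes with few counts, such as *Orc1*, with 28.8 to 46.4 counts.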

Additional observations from a re-analysis of the deposited data

How the results depend on the processing

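The direction of all 6 called replication genes was the same in all 20 alternatives, and between 12 (*Mcm3*) and 16 (*Orc4* and *Rpa3*) of the alternatives kept them past the threshold. As reported, 6 of the 50 were called. DESeq2's Wald test called 10 (8 lower), and scaling by total library size called 1 higher gene. With 1 library left out, the count ran from 0 to 12 (lower 0 to 10, higher 0 to 2), and their median log2 fold change from -0.18 to 0.00055. Over all genes 872 to 5001 were then called (414 to 2481 lower, 458 to 2520 higher), with 1 to 17 other replication genes, 1 to 14 mitosis genes and a *Ror2* log2 fold change from -0.46 to -0.41, which missed the threshold without control library 2 (edgeR adjusted p = 0.066) and without control library 3 (edgeR adjusted p = 0.075). The offset for GC content left 1192 lower genes, 4 other replication genes and 2 mitosis genes.

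Deviations of same-numbered control and mutant libraries had correlations of -0.18, -0.06 and 0.03. They were taken from means of 3 libraries per group, so they cannot decide whether the numbers pair the libraries. The methods speak of pairs of samples and do not define them. With the replicate block, 2013 genes were called (1001 lower, 1012 higher), with 2 replication genes (2 lower, 0 higher), 4 other replication genes and 4 mitosis genes, and *Ror2* missed the threshold (-0.43, edgeR adjusted p = 0.058). The replicate block with the GC offset called 1347 genes (561 lower, 786 higher), 1 replication gene (0 lower, 1 higher), 1 other replication gene and 0 mitosis genes.

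Of the 50 genes, 17 changed sign in at least 1 alternative, none of them called as reported, and 6 of the 17 are given here. With the GC offset, without and with the block, log2 fold changes were 0.067 and 0.065 for *Orc2*, -0.077 and -0.087 for *Pold2* and 0.26 and 0.27 for *Pcna*. With 1 library left out *Pcna* ran from -0.11 (without mutant library 3) to 0.047 (without mutant library 2) and *Gins4* from -0.055 (without mutant library 3) to 0.15, and with an offset for exon length *Gins4* was at -0.074. The sum of *Orc6* with the gene sharing its sequence was at -0.47 (edgeR adjusted p = 0.018) and that of *Cdc45* at 0.27 (edgeR adjusted p = 0.043). These sums were past the threshold, and each counts the other gene too. The causes were not tested.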

Other observations

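Across all genes tested, the log2 fold change rose with GC content (Spearman's rho 0.34 over 19294 genes with a value) and fell with exon length (rho -0.26). Across the 50 replication genes the same correlations were 0.21 and -0.21, and across the 25 mitosis genes 0.80 and -0.45. These are correlations over genes measured in the same 6 libraries, which are not independent replicates. The median GC content of the exons was 48.8% for the replication genes, 45.4% for the mitosis genes and 49.9% for all genes tested.

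Several replication genes share sequence with a neighbour that is far more abundant, and their sums then follow the neighbour. *Orc6* had 9.20 CPM on average in control libraries and its sum with *Vps35*, which overlaps it on the opposite strand, came to 137 ± 1.03 CPM in control and 98.6 ± 10.8 CPM in mutant libraries. *Cdc45* had 2.68 CPM, and its sum with *Ufd1*, likewise on the opposite strand, gave 43.0 ± 1.41 CPM in control and 51.8 ± 1.26 CPM in mutant libraries. *Orc6* shares 3.61% of its stretches with *Vps35*, and *Cdc45* shares 3.54% of its stretches with *Ufd1*. Which reads of these shared stretches came from the replication gene cannot be told from the deposited counts. The use of strand is not given in the sources used here, and neither is the number of reads in the shared stretches.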
